A study of Mus musculus with 16 samples.

Results

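The microRNAs (miRs) mmu-miR-128, mmu-miR-150 and mmu-miR-342-3p, known from lymphoid cells, were followed through early mouse hematopoiesis. They were chosen by their array signal in multipotent progenitors (MPP), which was high beside that in short-term stem cells and in myeloid progenitors, so the levels of MPP beside the other populations are given as a description and without a test. Every probe of the array designed for one of these names was taken. This gave 3 of the 577 miRs on the array and 6 of its 1712 probes, 2 for each miR, and all 3 miRs were among the 237 that passed the detection filter.

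A miR is cut from a hairpin transcript and guides a silencing complex to messenger RNAs, mainly through base pairing of its seed near the 5′ end. miR-150 is abundant in mature B and T lymphocytes and is known to restrain the transcription factor Myb. miR-128 is best known from neurons and separates lymphoid from myeloid acute leukemias, and miR-342-3p is made from a hairpin in Evl and is found in lymphocytes and in maturing granulocytes.

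The arrays were one-color Agilent mouse miR arrays, 16 in all, each hybridized with total RNA of a population sorted from bone marrow of young adult female C57BL/6 mice, several of which were pooled for each replicate. No animal was treated or carried an engineered allele. Marrow was depleted with antibodies to B220, CD3, Gr-1 and Ter119 and enriched for c-Kit before sorting. The depletion was directed at cells bearing these B cell, T cell, granulocyte and erythroid antigens. How many such cells remained in each population was not measured here. Long-term hematopoietic stem cells (LT-HSC, 1 array), short-term HSC (ST-HSC, 3 arrays) and MPP (3 arrays) came from one kind of sort and the myeloid progenitors, with 3 arrays for each population, from another. The latter are the common myeloid progenitor (CMP) and its offspring, the progenitor of granulocytes and monocytes (GMP) and that of megakaryocytes and erythroid cells (MEP). In sorted bulk samples such as these, fewer cells of a type and less RNA per cell cannot be told apart.

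Mature sequences are shown for the miRs whose seeds are compared below, from RefSeq on GRCm38.p6, with the seed, bases 2 to 8, in capitals.

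miR-128: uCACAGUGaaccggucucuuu
miR-27a: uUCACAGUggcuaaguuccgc
miR-27b: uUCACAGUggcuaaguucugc
miR-342-3p: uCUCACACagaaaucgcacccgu

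miR-128 is encoded by a pair of hairpins with the same mature sequence, which a probe cannot tell apart. The first, Mir128-1, places it at chr1:128202404-128202424 on the plus strand within the span of R3hdm1, and the second, Mir128-2, at chr9:112118644-112118664 on the minus strand within Arpp21. miR-342-3p lies at chr12:108658680-108658702 on the plus strand within Evl. The miR-150 hairpin spans chr7:45121757-45121821 on the plus strand, and no protein-coding gene of the annotation encloses it. Whether the intragenic hairpins are exonic or intronic was not read from the gene spans used here. miR-27a and miR-27b share 6 bases of the miR-128 seed, CACAGU, shifted by a single position. The passenger arm of the miR-150 hairpin, miR-150*, has its own probes and is described further on.

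Arrays lay on 3 slides, numbered here 1 to 3. Myeloid replicates 1 and 2 were on slide 1, and myeloid replicate 3 was on slide 2 together with LT-HSC and ST-HSC 1. All MPP arrays were on slide 3 with ST-HSC 2 and 3. Negative control spots were brighter on slide 1, with a 95th percentile of 9.94 to 44.3 units per array, than on the other slides, with 1.53 to 3.35 units. No spot was saturated. The summed level of 3 erythroid marker miRs, miR-144, miR-451 and miR-486, was 4044 to 6187 units in MEP and 34.4 to 76.9 in GMP, and miR-223, a granulocyte and monocyte miR, was highest in GMP. The LT-HSC array stood apart, with an erythroid sum of 2387 units against 85.1 to 307.8 in ST-HSC, and its values below are of a single array.

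All values are log2 signals after quantile normalization, and levels are compared between arrays for the same miR, never between miRs. miR-128 was well above background on all 16 arrays. Its level was 8.76, 8.47 and 7.97 in MPP 1, 2 and 3, 5.0, 5.85 and 5.95 in ST-HSC 1, 2 and 3, and 4.70 in LT-HSC. It was 7.02, 6.46 and 6.05 in CMP 1, 2 and 3, 5.41, 5.79 and 4.69 in GMP, and 5.63, 5.41 and 4.82 in MEP. The MPP arrays stood above all others without overlap, CMP came next, just above the highest ST-HSC array, and GMP, MEP and ST-HSC overlapped.

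miR-150 passed the background call on every HSC subset and CMP array, on 2 of 3 GMP arrays and on 0 of 3 MEP arrays. Its level was 7.24, 7.08 and 7.29 in MPP, 5.27, 5.64 and 5.88 in ST-HSC, and 5.97 in LT-HSC. It was 6.09, 5.65 and 4.65 in CMP, 4.24, 4.08 and 3.02 in GMP, and 3.17, 3.85 and 2.28 in MEP. MPP was again highest on every array. ST-HSC and CMP overlapped, GMP lay below all CMP arrays, and GMP and MEP overlapped.

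miR-342-3p was well above background on every array except the 3 MEP arrays. Its level was 7.33, 6.82 and 6.57 in MPP, 5.01, 4.60 and 5.45 in ST-HSC, and 4.82 in LT-HSC. It was 5.93, 5.88 and 4.54 in CMP, 5.58, 6.07 and 5.01 in GMP, and 2.72, 2.88 and 1.68 in MEP, where the lowest value was close to the floor of 1.62. CMP and GMP overlapped each other and ST-HSC, and MEP stood alone below every other array.

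**Figure D1:**
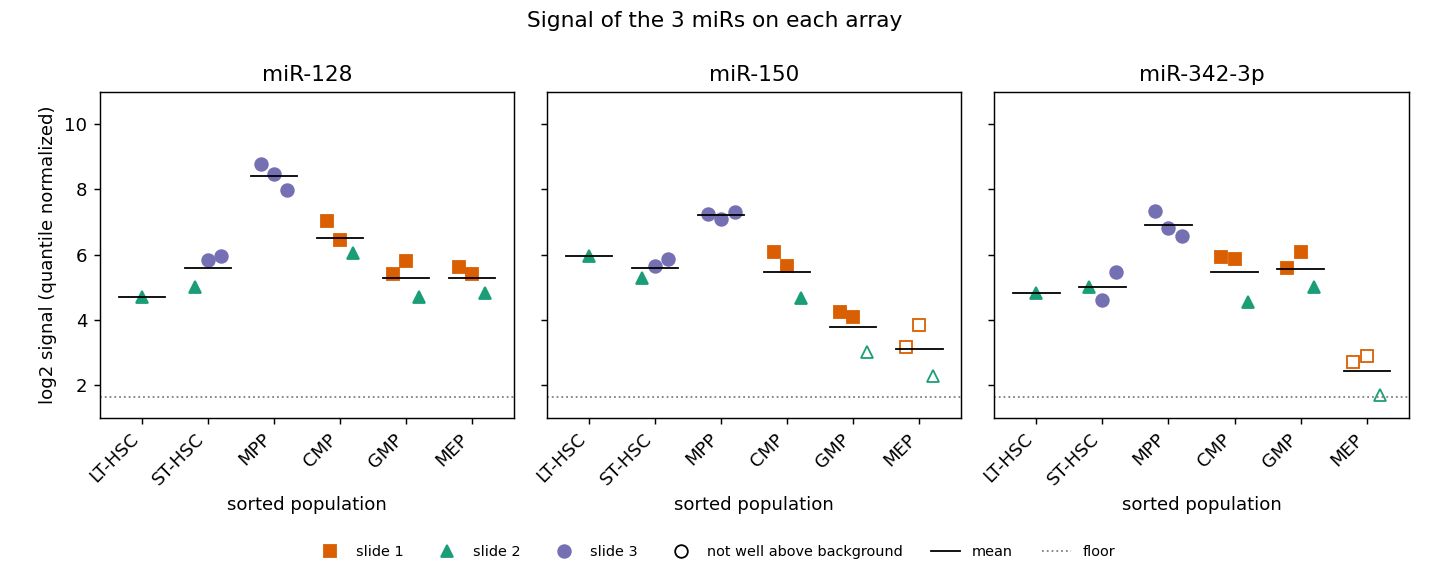
Log2 signal of miR-128, miR-150 and miR-342-3p (y axis) on each of the 16 arrays by sorted population (x axis), with slide by symbol, open symbols where the probe was not well above background, bars for population means and a dotted line at the floor of 1.62. The 3 MPP arrays sit above all 13 other arrays for each miR, and miR-342-3p drops toward the floor in MEP alone.

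The first comparison asked how MPP differed from ST-HSC, the population from which they arise, on the slide that held both. On slide 3, miR-128 averaged 8.40 ± 0.40 (SD, n = 3) in MPP and 5.90 ± 0.073 (SD, n = 2) in ST-HSC, a difference of 2.50 on the log2 scale or 5.67-fold, and the single pairs of arrays differed by 2.02 to 2.92. miR-150 averaged 7.20 ± 0.11 (SD, n = 3) and 5.76 ± 0.17 (SD, n = 2), a difference of 1.45 or 2.72-fold, with pairs from 1.21 to 1.65. miR-342-3p averaged 6.91 ± 0.39 (SD, n = 3) and 5.03 ± 0.61 (SD, n = 2), a difference of 1.88 or 3.69-fold, with pairs from 1.12 to 2.74. The median difference of all 237 miRs was 0.12, and the differences of miR-128, miR-342-3p and miR-150 ranked 1, 2 and 5 among them.

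Every MPP array exceeded both ST-HSC arrays of slide 3 for 3 of the 3 miRs, as 36.3% of all tested miRs did, and every ST-HSC array for the 3 miRs and for 21.1% of all. Every MPP array exceeded all 13 other arrays for the 3 miRs and for 12.7% of all tested miRs, 30 in number. These counts only restate how the miRs were chosen. With ST-HSC 1, which lay on slide 2, the differences over all arrays were 2.80 for miR-128, 1.61 for miR-150 and 1.89 for miR-342-3p. ST-HSC 2 and 3 were above ST-HSC 1 by 0.90 for miR-128, by 0.48 for miR-150 and by 0.017 for miR-342-3p on the log2 scale. Without background subtraction, in the log2 values deposited by the authors, the differences over all arrays were 2.03, 1.03 and 1.06 in the same order.

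The second comparison set MPP beside the myeloid progenitors, with which they share no slide. MPP exceeded CMP by 1.89 for miR-128, 1.74 for miR-150 and 1.46 for miR-342-3p on the log2 scale, or 3.71-fold, 3.34-fold and 2.74-fold. MPP exceeded GMP by 3.10, 3.42 and 1.36 in the same order. The miR-150 probe was not well above background on GMP 3, so the size of 3.42 is not firm. Among the 237 miRs the differences ranked 15, 21 and 31 against CMP and 5, 3 and 34 against GMP. For miR-128 the difference from MEP was 3.12, or 8.67-fold. In MEP the probes of miR-150 and miR-342-3p were not well above background, so folds against MEP are given as cautious folds. For these the mean of the brighter population was set against a raised mean over the MEP arrays. Each MEP array counted with the higher of the probe's own value and the dimmest signal that passed its background call. A cautious fold carries no sampling error and holds for this normalization, so it is not a strict minimum. The cautious folds of MPP over MEP were 11.6 for miR-150 and 9.54 for miR-342-3p, with measured means of 3.10 ± 0.79 and 2.43 ± 0.65 (SD, n = 3) in MEP. No slide difference was taken out of these folds.

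**Figure D2:**
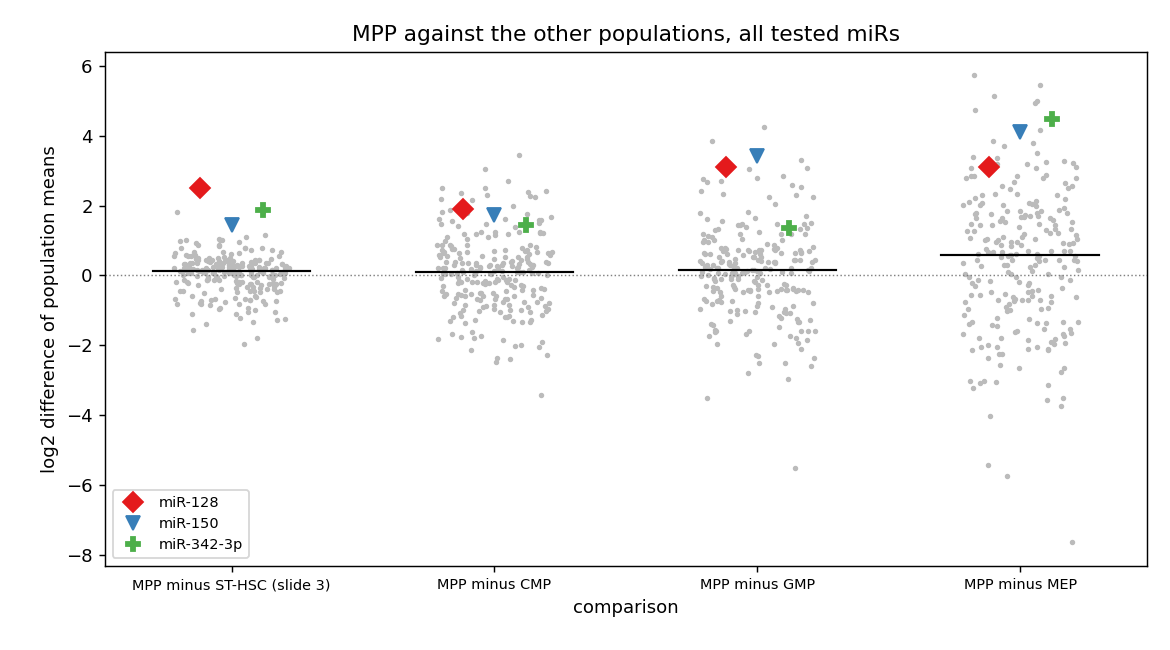
Difference of population means on the log2 scale (y axis) between MPP and ST-HSC of slide 3, CMP, GMP and MEP (x axis) for 237 miRs, as gray points with a bar at their median, and for the 3 miRs as colored symbols. Against ST-HSC they rank 1, 2 and 5, and against CMP, GMP and MEP other miRs differ by as much or more.

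The mean over all 9 myeloid arrays was lower than in MPP by 2.70 for miR-128, 3.09 for miR-150 and 2.43 for miR-342-3p, beside a median difference of 0.24 over all miRs. Every MPP array was above every myeloid array for the 3 miRs and for 21.9% of all tested miRs. Slide 1 arrays read higher than slide 2 arrays of the same population for each miR. For miR-128 the excess was 0.69 in CMP, 0.91 in GMP and 0.70 in MEP, for miR-150 it was 1.22, 1.14 and 1.23, and for miR-342-3p it was 1.36, 0.81 and 1.12, while the median over all miRs was 0.068, 0.13 and 0.15. The MEP signals of miR-150 and miR-342-3p and the GMP 3 signal of miR-150 were not well above background. The excesses that use them, 1.14, 1.23 and 1.12, are therefore not firm. With the slide as a block, which ties the slides through ST-HSC and the myeloid populations, the differences from MPP were 2.31, 3.40 and 3.15, and without the slide 1 arrays, a setting chosen after seeing the data, they were 3.21, 3.89 and 3.17.

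The 3 miRs were not lost alike in the myeloid progenitors, although a common loss there was part of how they were grouped. miR-128 in ST-HSC was below CMP by 0.91 on the log2 scale and differed from GMP and MEP by 0.30 and 0.31. miR-150 in ST-HSC differed from CMP by 0.13 and exceeded GMP by 1.81, and its cautious fold above MEP was 3.82. The miR-150 probe was not well above background on GMP 3. Over all arrays miR-342-3p in ST-HSC was 0.43 below CMP and 0.53 below GMP, but on slide 2, the slide that holds these populations together, it was 0.46 above CMP and level with GMP. The cautious fold of miR-342-3p in ST-HSC above MEP was 2.57 in the means of all arrays.

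On slide 2 the populations can be set side by side with 1 array each and no replicate. ST-HSC 1 was 1.05 below CMP 3 for miR-128 and 0.62 above it for miR-150. It was 2.25 above GMP 3 for miR-150, whose probe was not well above background on GMP 3. It was level with GMP 3, at 5.01, for miR-342-3p. For miR-342-3p it was 3.33 above MEP 3, whose probe was not well above background. LT-HSC 1 differed from ST-HSC 1 by −0.30 for miR-128, 0.69 for miR-150 and −0.19 for miR-342-3p. Before normalization the signals on LT-HSC 1 and ST-HSC 1 were 9.44 and 16.7 units for miR-128. They were 19.4 and 20.4 units for miR-150, and 9.83 and 16.9 units for miR-342-3p. The LT-HSC array had the lowest summed signal of all arrays, 312700 units beside 694200 on ST-HSC 1. Whether this weak signal or the erythroid marker signal of the LT-HSC array bears on these differences was not tested.

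Differences among CMP, GMP and MEP had no part in the choice of the miRs and were tested with limma over all 237 miRs, in 9 tests for the 3 miRs. Between CMP and GMP, miR-150 was higher in CMP, by 1.68 ± 0.44 on the log2 scale (SE, 95% interval 0.73 to 2.64, limma adjusted p = 0.0361), and every CMP array was above every GMP array. CMP also exceeded GMP by 1.21 ± 0.37 for miR-128 (SE, 95% interval 0.41 to 2.02, limma adjusted p = 0.0572), which did not pass the threshold of 0.05. miR-342-3p differed by −0.10 ± 0.44 (SE, 95% interval −1.04 to 0.84, limma adjusted p = 0.966). The threshold was passed in this direction by 1 of the 3 miRs and by 4.64% of all tested miRs, and arrays did not overlap for 2 of the 3 and for 13.5% of all.

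Same-numbered CMP, GMP and MEP arrays, which also share a slide, deviated together. In a fit of these 9 arrays with replicate number as a block, chosen after seeing the data, miR-128 passed between CMP and GMP (limma adjusted p = 0.0140), as did miR-150 (limma adjusted p = 0.0128). With all 16 arrays the block gave a limma adjusted p of 0.0473 for miR-128. With the slide as a block the limma adjusted p was 0.00135 for miR-128 and 0.000173 for miR-150. Within slide 1 CMP exceeded GMP by 1.14 for miR-128 and by 1.71 for miR-150, and on slide 2 by 1.36 and 1.63. The slide 2 value of miR-150 is measured against GMP 3, where its probe was not well above background. The miR-150 call was lost without CMP 1 (limma adjusted p = 0.141), CMP 2 (0.118) or GMP 3 (0.137), and also without normalization between arrays (0.715), without a detection filter (0.0867) or in the 9 myeloid arrays without a block (0.114). miR-128 passed without CMP 3 (limma adjusted p = 0.0421) or GMP 2 (0.0484).

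Between CMP and MEP all 3 miRs were higher in CMP. miR-342-3p differed by 3.03 ± 0.44 (SE, 95% interval 2.08 to 3.97, limma adjusted p = 5.57e-05), with a cautious fold of 3.47. miR-150 differed by 2.37 ± 0.44 (SE, 95% interval 1.41 to 3.32, limma adjusted p = 0.000437), with a cautious fold of 3.49. miR-128, measured on both sides, differed by 1.22 ± 0.37 (SE, 95% interval 0.42 to 2.03, limma adjusted p = 0.0106), or 2.34-fold. No CMP array overlapped a MEP array for any of them, as for 46.8% of all tested miRs, and 43.9% of all tested miRs passed the threshold higher in CMP, with a median difference of 0.55 in favor of CMP.

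The miR-128 call between CMP and MEP was lost without CMP 1 (limma adjusted p = 0.0538) or MEP 3 (0.0550), and when arrays were scaled to a shared 75th percentile in place of quantiles, where the difference was 0.69 (limma adjusted p = 0.0951) and the median over all miRs was 0.25. It was also lost without normalization between arrays (limma adjusted p = 0.113). The calls for miR-150 and miR-342-3p held in each of these settings. With the 75th percentile their differences were 1.56 and 2.25, and in the deposited values, without background subtraction, 0.73 and 0.79. Within slide 1 the differences were 1.22, 2.36 and 3.11 for miR-128, miR-150 and miR-342-3p, and on slide 2 they were 1.23, 2.38 and 2.86. Those of miR-150 and miR-342-3p are measured against MEP signals that were not well above background, so their size is not firm.

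Between GMP and MEP the 3 miRs parted. miR-342-3p was 3.12 ± 0.44 higher in GMP (SE, 95% interval 2.18 to 4.07, limma adjusted p = 4.06e-05), with a cautious fold of 3.72. Its GMP and MEP arrays did not overlap, and the within-slide differences were 3.02 and 3.33, measured against the same dim MEP signals. miR-128 differed by 0.010 ± 0.37 (SE, 95% interval −0.80 to 0.82, limma adjusted p = 0.991). miR-150 differed by 0.68 ± 0.44 (SE, 95% interval −0.27 to 1.64, limma adjusted p = 0.201), with 2 of 3 GMP arrays and 0 of 3 MEP arrays well above background, so no fold is given. The threshold was passed by 1 of the 3 miRs and by 40.9% of all tested miRs, higher in GMP, and GMP arrays were above MEP arrays without overlap for 1 of them and for 44.7% of all.

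For miR-128 and miR-150 the direction between GMP and MEP depended on the scaling. With the 75th percentile in place of quantiles, which moved the median difference of all miRs from 0.44 to 0.032, miR-128 was −0.87 (limma adjusted p = 0.0419) and miR-150 −0.37 (limma adjusted p = 0.397) in GMP relative to MEP. In the 9-array fit with the replicate block miR-150 was higher in GMP (limma adjusted p = 0.0299), and with the slide as a block the limma adjusted p was 0.00430. Both calls set 2 of 3 GMP arrays well above background against 0 of 3 MEP arrays, so they have no firm basis.

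**Figure D3:**
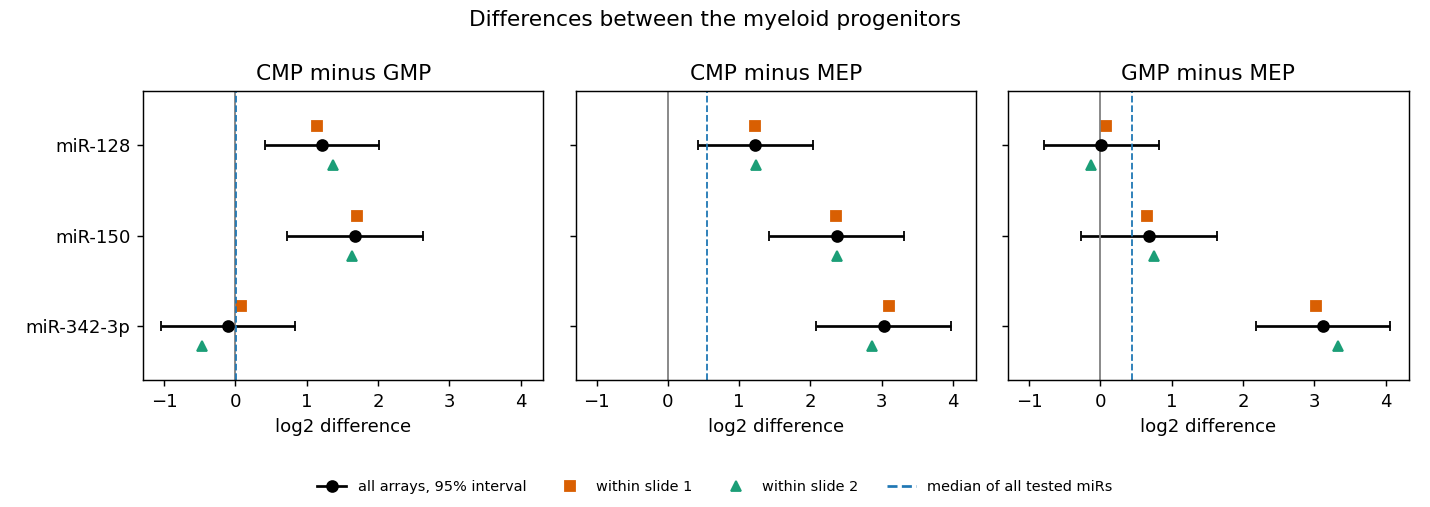
Log2 difference (x axis) between CMP, GMP and MEP for miR-128, miR-150 and miR-342-3p (y axis): black points with 95% intervals over all arrays, colored symbols within slide 1 and slide 2, and a dashed line at the median of all 237 miRs. miR-342-3p separates MEP from both other populations by 3.03 and 3.12, whereas miR-128 and miR-150 separate CMP from MEP by 1.22 and 2.37.

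The other arms of the hairpins were looked at next, since both arms of a hairpin come from the same transcript. miR-150* passed the background call on 4 of 16 arrays, ST-HSC 2 and 3 and MPP 2 and 3. Its level was 3.15, 4.42 and 4.45 in MPP and 2.79, 5.09 and 5.01 in ST-HSC, so the populations overlapped through ST-HSC 1 of slide 2, which was not well above background. On slide 3 both ST-HSC arrays lay above all MPP arrays, and MPP differed from them by −1.04, with pairs from −1.94 to −0.55. Over all arrays the difference of −0.29 ± 0.65 between MPP and ST-HSC did not pass the threshold (SE, 95% interval −1.68 to 1.11, limma adjusted p = 0.795). The sequence of this arm, shown because it is the measured partner of miR-150, lies at chr7:45121798-45121819.

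miR-150*: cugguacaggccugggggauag

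The 5p arm of the miR-342 hairpin passed the background call on 0 of 16 arrays and was not tested. No other arm of the miR-128 hairpins was found among the probe names.

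miR-27a and miR-27b, which share seed bases with miR-128, were well above background on all 16 arrays and had another order of levels. miR-27a was 8.61, 8.93 and 8.90 in MPP, 9.79, 8.98 and 8.98 in ST-HSC, 8.98, 9.14 and 10.12 in CMP, 9.55, 9.63 and 9.86 in GMP, and 6.15, 6.63 and 5.97 in MEP. MEP was lowest on every array, and MPP lay below all ST-HSC arrays. miR-27a differed between MPP and ST-HSC by −0.43 ± 0.32 (SE, limma adjusted p = 0.451) and miR-27b by −0.26 ± 0.31 (SE, limma adjusted p = 0.643), so neither passed. With the slide as a block, which gives the same estimates as slide 3 alone, the differences were −0.16 (limma adjusted p = 0.689) and 0.13 (limma adjusted p = 0.661), so the sign for miR-27b turned. CMP exceeded MEP by 3.16 for miR-27a (limma adjusted p = 2.87e-06) and by 2.05 for miR-27b (limma adjusted p = 8.64e-05).

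Between GMP and MEP, where miR-128 differed by 0.010, miR-27a was higher in GMP by 3.43 ± 0.32 (SE, limma adjusted p = 1.10e-06) and miR-27b by 2.04 ± 0.31 (SE, limma adjusted p = 8.88e-05). These differences between miRs were not themselves tested. miR-27b in MPP differed from the mean of CMP, GMP and MEP by −0.92 ± 0.26 (SE, limma adjusted p = 0.00807). Taken singly, MPP differed by −1.61 from CMP, −1.60 from GMP and 0.44 from MEP, so MPP was not lower than MEP. With the slide as a block the difference from the mean of these populations was 0.018 (limma adjusted p = 0.966). miR-742*, which shares 6 bases of the miR-342-3p seed, did not pass the detection filter. The array names miR-216a and miR-377 were left out, as it was not settled that they stand for the arms with a shared run. The seed of miR-150 was not searched, as the reference used held no mature sequence for it.

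**Figure D4:**
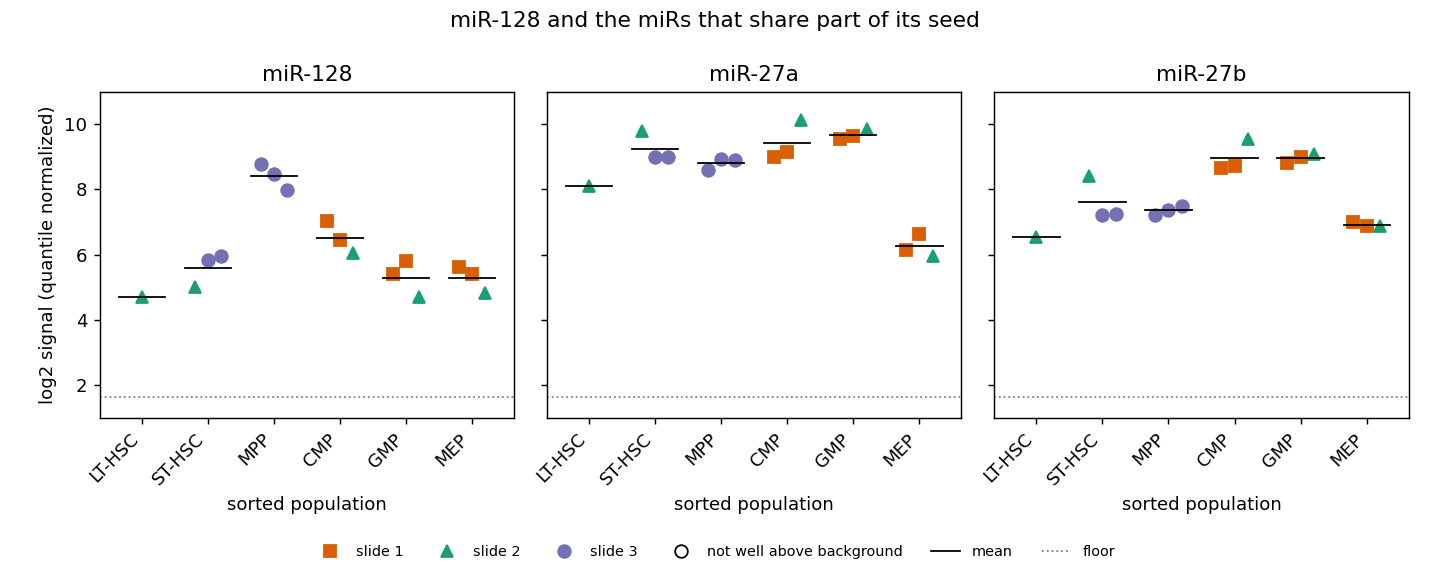
Log2 signal (y axis) of miR-128, miR-27a and miR-27b on each array by sorted population (x axis), drawn as in the plot of the 3 miRs. miR-128 is highest in MPP, at 7.97 to 8.76, whereas miR-27a is lowest in MEP, at 5.97 to 6.63, and does not stand out in MPP.

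Of 28 other miRs known from lymphoid cells or lymphoid leukemias, 24 were tested. Between MPP and ST-HSC over all arrays, ST-HSC 1 of slide 2 included, 0 of the 24 passed in limma, where 4.64% of all tested miRs did. In that fit 4 of the 24 had an unadjusted p under 0.05. These were miR-92a, miR-181b and miR-19b, with differences of 0.76, 0.67 and 0.65 (limma adjusted p = 0.0907, 0.111 and 0.253), and miR-17, with −0.57 (limma adjusted p = 0.239). The median over the list was 0.072 in that fit, beside 0.089 over all tested miRs. On slide 3 alone the differences of the 24 ran from −0.44 for miR-18a to 1.04 for miR-29c, where the median of all tested miRs was 0.12. With the slide as a block 42 of all tested miRs were called in place of 11, and calls within the list were not counted there.

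Between MPP and the mean of the myeloid populations 9 of the 24 were higher and 8 lower in MPP, where 36.3% and 22.8% of all tested miRs were. The median over the list was 0.028 there, beside 0.24 over all. miR-155, which is induced in activated lymphocytes, was higher in MPP by 1.75 ± 0.37 (SE, limma adjusted p = 0.00139) and, with the slide as a block, by 1.49 (limma adjusted p = 0.00212), but it did not pass without normalization between arrays (1.45, limma adjusted p = 0.115). miR-17, of a polycistronic cluster that B cell precursors need, was lower by −1.84 ± 0.19 (SE, limma adjusted p = 5.81e-06) and, with that block, by −0.97 (limma adjusted p = 0.0135). miR-16 and miR-142-3p were lower by −2.28 and −1.56 (limma adjusted p = 0.000250 and 0.00247), but with the slide as a block the differences were 0.19 and 0.46 and did not pass (limma adjusted p = 0.535 and 0.204).

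For each of the 3 miRs the miRs with the most similar levels across the arrays were listed. Likeness was measured as Pearson r over 16 arrays, which share populations and slides, and is given as a description with r after subtraction of the slide means beside it. All arrays entered r, including those where a miR was not well above background. For miR-150 the 5 most alike were miR-365 (0.965, then 0.961), miR-196b (0.939, then 0.879), miR-532-3p (0.926, then 0.860), miR-126-3p (0.926, then 0.957) and let-7e (0.921, then 0.914). Of these, miR-196b and miR-126-3p were well above background on all 16 arrays, miR-365 on 12, let-7e on 9 and miR-532-3p on 6. miR-196b, miR-126-3p and let-7e are among the miRs listed here as markers of the HSC subsets, MPP included. Their own means were highest in MPP, at 9.22, 8.56 and 7.46.

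For miR-342-3p the 5 most alike were miR-467b (0.935, then 0.910), miR-155 (0.917, then 0.894), miR-532-3p (0.905, then 0.901), miR-500 (0.893, then 0.911) and miR-221 (0.890, then 0.850). miR-532-3p was thus on both lists, but it was well above background on only 6 of 16 arrays. miR-467b was so on 12 and lay at the floor of 1.62 on every MEP array, while miR-155, miR-500 and miR-221 were so on all 16. For miR-128 the 5 most alike were miR-92a (0.884, then 0.735), miR-19b (0.835, then 0.660), miR-26b (0.823, then 0.525), miR-126-5p (0.815, then 0.769) and let-7g (0.806, then 0.529). Of these, miR-126-5p was well above background on 11 arrays and the others on all 16. Among the 3 miRs themselves r was 0.770 for miR-128 and miR-150, 0.698 for miR-128 and miR-342-3p, and 0.797 for miR-150 and miR-342-3p, so none was among the 5 most like another.

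**Figure D5:**
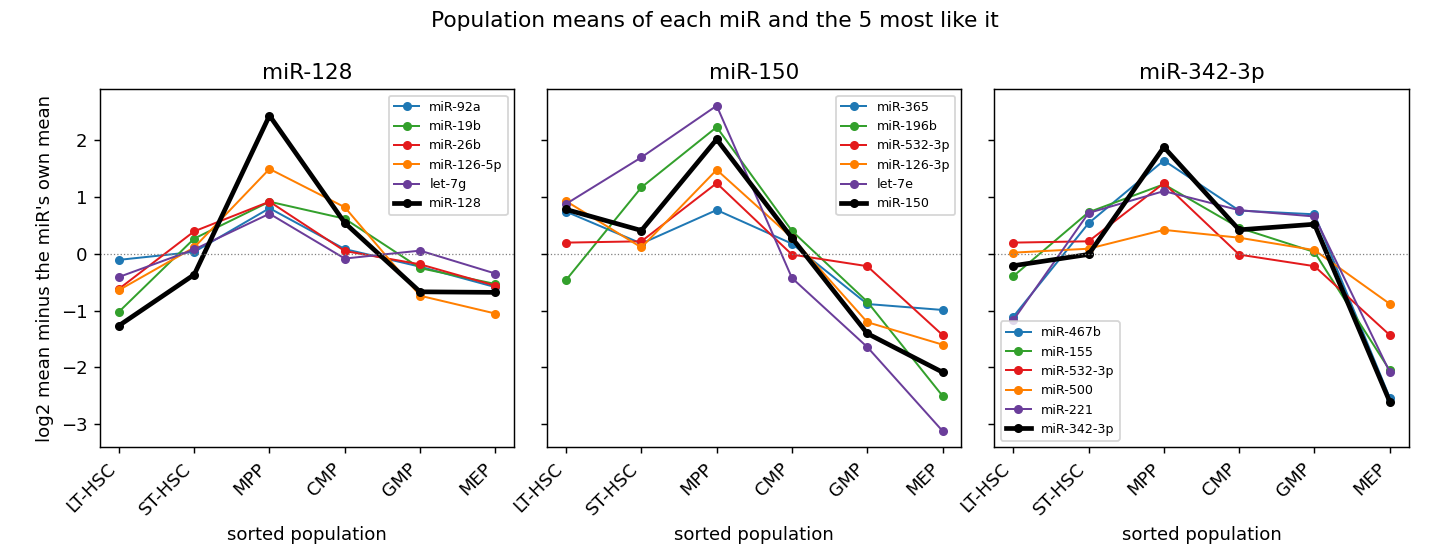
Population means on the log2 scale minus each miR's own mean over the 6 populations (y axis) along the sorted populations (x axis) for each of the 3 miRs in black and the 5 miRs most like it in color. The companions of miR-342-3p drop in MEP, those of miR-150 decline through CMP, GMP and MEP, and those of miR-128 peak in MPP less steeply than miR-128.

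The probe that stood for each miR was the brighter of 2. For miR-128 the other probe gave 2.81 between MPP and ST-HSC and 1.32 between CMP and GMP. For miR-342-3p it gave 1.69 between MPP and ST-HSC and 2.82 between GMP and MEP. For miR-150 the other probe passed the background call on 5 of 16 arrays, all of them MPP or ST-HSC, and on no CMP, GMP or MEP array. It gave smaller differences, 1.03 between MPP and ST-HSC, 1.03 between CMP and GMP and 1.58 between CMP and MEP. Those among the myeloid populations compare signals that were not well above background, so for miR-150 they rest on the brighter probe alone. Each pair of probes gave the same direction in the comparisons of MPP with ST-HSC and of CMP, GMP and MEP with each other.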

How the data were processed

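RNA of 6 sorted mouse bone marrow populations was hybridized to 16 one-color Agilent mouse miR arrays, and groups came from the sample titles. Titles without a number were given the number missing from their population. The deposited intensity of each spot had been background-subtracted by Agilent Feature Extraction and not normalized between arrays. The deposited log2 values had been quantile normalized by the authors with limma, and within every array they ranked spots as the median foreground does (Spearman rho 1.0). Control and outlier spots were dropped, and each probe's other spots were averaged. Probe means were quantile normalized, as in the study's methods, raised to a floor of 3.07 units (1.62 as log2), which is the 95th percentile of negative control spots per array, taken at its median, and log2 transformed. A probe counted as well above background where at least 0.5 of its spots were called so, and had to be so on at least 3 arrays, which left 493 probes and 237 miRs, 235 of the mouse. Each miR was represented by its brightest passing probe.

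One mean per population was fitted with lmFit and eBayes (limma 3.58.1, R 4.3.3), with 10 residual degrees of freedom, by two-sided tests at 0.05 after Benjamini-Hochberg adjustment across 237 miRs. The fit was tested on simulated data whose arrays varied independently, without slide or replicate effects, so that test does not cover such effects. The lone LT-HSC array took its spread from the others. Replicates were separate pools of mice, and precision is limited by the number of arrays. Same-numbered CMP, GMP and MEP arrays, which also share a slide, deviated together (r = 0.227 to 0.632 across miRs for every pair). For GMP 1 and GMP 2 the MEP array that deviated most alike was not the same-numbered one. A shared slide and a shared number were not separated. Replicate number was used as a block in alternative fits only, and the main tests used no block. The members and all lists were chosen with earlier results of these data known. The text names the 3 miRs, the other arms of their hairpins, and miRs sharing a run of at least 6 seed bases with miR-128 or miR-342-3p. It also names the lymphoid list as counts with up to 4 of the largest MPP-to-myeloid differences, and the 5 miRs most alike. The 4 of that list with an unadjusted p under 0.05 were named after their values were seen. The alternatives were other scaling, normexp with an offset of 50, the deposited values, a doubled floor, no detection filter, the mean of passing probes, slide and replicate blocks, parts of the arrays, and each array left out.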

Additional observations from a re-analysis of the deposited data

How the results depend on the processing

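The direction of MPP against ST-HSC and against the myeloid progenitors held for the 3 miRs in every setting run. With normexp and an offset of 50, MPP exceeded ST-HSC by 1.88 for miR-128, 0.96 for miR-150 and 1.0 for miR-342-3p, and the myeloid mean by 1.82, 1.38 and 1.05. The deposited values gave 2.03 for miR-128 and 1.06 for miR-342-3p against ST-HSC, and 1.94, 1.56 and 1.17 against the myeloid mean. With the slide as a block miR-342-3p differed from the myeloid mean by 3.15, and without slide 1, chosen after seeing the data, the 3 differences were 3.21, 3.89 and 3.17.

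Between CMP and GMP, miR-128 passed with the 75th percentile (1.55), the mean of passing probes (1.27), the slide block, the replicate block and the replicate block on 9 arrays (each 1.21, as without a block), and slide 1 only (1.14). miR-150 lost its call without normalization (1.64), without a detection filter and with the 9 myeloid arrays only (each 1.68). With each array left out miR-128 ranged from 0.91 to 1.46 and miR-150 from 1.30 to 2.09. Between CMP and MEP miR-128 lost its call with the 75th percentile (0.69) and without normalization (1.49), and ranged from 0.97 to 1.45 with each array left out. Between GMP and MEP miR-128 turned to −0.87 with the 75th percentile, and miR-150 passed with the slide block and with the replicate block on 9 arrays (each 0.68). These miR-150 calls are against MEP signals not well above background and have no firm basis. The cause was not tested. With the slide as a block the differences of MPP from the myeloid mean turned to 0.018 for miR-27b, 0.19 for miR-16 and 0.46 for miR-142-3p. miR-150* passed between CMP and MEP with the 75th percentile (−1.68), although 0 of 3 arrays of either population passed the background call, so this call has no firm basis, and between MPP and the myeloid mean with the mean of passing probes (1.47) and with an array left out, with a range of 0.96 to 1.61, while with the slide as a block the difference turned to −1.20 and did not pass. miR-155 lost its call between MPP and the myeloid mean without normalization (1.45).

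The number of miRs called between CMP and GMP, 18, became 32 with the 75th percentile, 2 without normalization, 28 with the deposited values, 68 with the slide block, 38 with the replicate block on 9 arrays, 44 on slide 1 only and 8 to 22 with each array left out (9 without CMP 1, 10 without CMP 2 and 8 without GMP 3). Without normalization 99 were called between CMP and MEP in place of 153, and 64 between MPP and the myeloid populations in place of 140. Between MPP and ST-HSC the count of 11 became 6 with the 75th percentile, 0 without normalization, 19 with normexp, 42 with the slide block, 59 on slide 3 only and 2 to 11 with each array left out (2 without ST-HSC 2, MPP 2 or MPP 3, and 3 without MPP 1). MPP and ST-HSC arrays with the same number did not deviate together (r = −0.043 to 0.123), so the replicate block there pairs nothing. Probes near background, miR-150 in GMP and MEP and miR-342-3p in MEP, limit the size of those differences.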
